A study of Rattus norvegicus with 18 samples.

Results

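The genes described here are 7 neutrophil and early myeloid genes, S100a8, S100a9, Slpi, Mmp8, Mcemp1, Csf3r and Cxcr2, measured in the cerebral cortex of rats after subarachnoid hemorrhage (SAH). They were taken by gene symbol from the 30735 genes of the count table, and each symbol matched 1 row. The genes were chosen from results of these same libraries, and which values led to the choice is not recorded, so every comparison below was treated as used in choosing them. Their levels and folds are therefore a description, with no test. Of the 7 genes, 5 passed the filter on low counts that left 18444 genes for testing, and S100a8 and Cxcr2 did not.

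Neutrophils are short-lived white cells of the blood that enter injured tissue within hours. They grow in the bone marrow under granulocyte colony-stimulating factor, which acts through the receptor encoded by Csf3r, and they follow chemokines of the CXC family through the receptor encoded by Cxcr2. S100a8 and S100a9 encode the subunits of calprotectin, an abundant protein of the neutrophil cytoplasm, Mmp8 encodes the neutrophil collagenase and Slpi encodes an inhibitor of neutrophil elastase. Mcemp1 encodes a membrane protein of mast cells and other myeloid cells. The transcripts of many granule proteins, such as Mpo, Elane, Ltf and Camp, are made mainly in precursors in the marrow and are scarce in mature cells of the blood.

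The series held 18 libraries, 1 from each adult Sprague Dawley rat, 6 in the sham group, 6 in SAH 1d and 6 in SAH 7d. SAH was induced by puncturing an artery from within its lumen, and sham rats underwent the operation without the puncture. Cortex was collected 1 or 7 days after SAH, and the labels give no day for the sham rats. The study describes the whole cortex of the operated side, washed in saline to clear blood, whereas the labels speak of both sides and of mice. The identifiers of the genes are rat ones. The SAH libraries are numbered here by the names of their columns, since their titles are other codes. Total counts per library ranged from 27270026 to 38271014, with the highest total in SAH 1d-3. Levels are given as CPM, counts per 1e+06 counts after TMM scaling, and as FPKM, the deposited values per transcript length, wherever genes are set beside each other.

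Promoters of 5 of the 7 genes are listed by RefSeq for the GRCr8 assembly, and those of S100a9, Csf3r and Mmp8 are shown because these genes separate the pair of libraries that hold most of the signal. S100a9 peaked in SAH 1d-3, and Csf3r and Mmp8 peaked in SAH 7d-5. Each sequence runs 5′ to 3′ from 250 bases before to 50 bases after the listed transcript start. The coordinates belong to GRCr8, and the counts were made on an earlier assembly. Capitals mark matches, on either strand, to the letters GAGGAA (the PU.1 core), TTNNGNAA (C/EBP), TGANTCA (AP-1) and TTCNNNGAA (STAT).
S100a9, chr2:178490573-178490872, minus strand: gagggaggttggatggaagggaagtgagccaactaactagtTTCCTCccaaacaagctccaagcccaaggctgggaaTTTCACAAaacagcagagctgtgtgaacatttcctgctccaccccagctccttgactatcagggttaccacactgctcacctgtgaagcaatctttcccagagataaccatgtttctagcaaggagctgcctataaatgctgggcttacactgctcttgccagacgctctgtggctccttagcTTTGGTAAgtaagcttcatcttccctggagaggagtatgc
Csf3r, chr5:143582970-143583269, plus strand: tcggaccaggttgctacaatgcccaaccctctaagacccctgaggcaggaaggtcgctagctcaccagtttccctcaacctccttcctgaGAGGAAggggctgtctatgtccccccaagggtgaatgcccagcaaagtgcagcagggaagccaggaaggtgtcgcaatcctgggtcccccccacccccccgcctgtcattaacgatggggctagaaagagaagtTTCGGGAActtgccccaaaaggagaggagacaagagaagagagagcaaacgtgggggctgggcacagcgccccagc
Mmp8, chr8:13008640-13008939, plus strand: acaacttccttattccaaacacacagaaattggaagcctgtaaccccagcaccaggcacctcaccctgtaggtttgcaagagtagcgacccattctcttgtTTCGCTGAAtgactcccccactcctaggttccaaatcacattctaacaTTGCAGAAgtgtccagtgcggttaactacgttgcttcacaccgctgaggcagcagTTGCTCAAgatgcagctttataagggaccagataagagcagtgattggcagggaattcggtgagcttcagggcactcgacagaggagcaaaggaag
PU.1 and C/EBP proteins are transcription factors of the myeloid lineage. The C/EBP letters were found in 3 of the 5 promoters, S100a9, Csf3r and Mmp8, and in 41.3% of all 33469 promoters of the same length. The PU.1 core was found in 2 of the 5, S100a9 and Csf3r, against 27.6% of all promoters. In the promoter of S100a9 the PU.1 match began 209 bases and a C/EBP match 173 bases before the start. In the promoter of Mmp8 the STAT letters began 149 bases before the start, and this was the only STAT match among the 5 promoters, against 8.87% of all promoters. The AP-1 letters were found in 1 of the 5, Mcemp1, against 7.33% of all promoters. A match is a run of letters and not a measured binding site. In the RefSeq annotation the genes S100a8 and S100a9 lie next to each other on chromosome 2, with 0 genes between them.

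S100a8 and S100a9 were highest in the SAH 1d group. S100a9 (ENSRNOG00000011483) ranged from 0 to 1.48 CPM in the sham group with a median of 0.249, from 0.752 to 30.5 in SAH 1d with a median of 1.2, and from 0 to 0.696 in SAH 7d with a median of 0.246. The highest SAH 1d value was that of SAH 1d-3, followed by SAH 1d-2 at 4.23 CPM, and the highest sham value was that of sham-4. All SAH 1d libraries lay above all SAH 7d libraries in CPM, while sham-4 lay within the SAH 1d range. The lowest SAH 1d library, SAH 1d-4, had 21 counts, and the highest SAH 7d library, SAH 7d-5, had 23. The mean of S100a9 was 6.47 ± 11.8 CPM in SAH 1d and 0.404 ± 0.540 in sham (SD, n = 6 each), a 16.0-fold ratio that fell to 4.11 without SAH 1d-3. S100a8 (ENSRNOG00000011557) followed S100a9 at a lower level, from 0 to 0.185 CPM in sham, from 0.107 to 4.74 in SAH 1d and from 0 to 0.212 in SAH 7d. It had reads in all 6 SAH 1d libraries, in 3 sham libraries and in 2 SAH 7d libraries. Within the SAH 1d group S100a9 was 2.33 to 5.48 times as high as S100a8 on the FPKM scale.

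Slpi and Mcemp1 had no read in any sham library. Slpi (ENSRNOG00000046699) ranged from 0.462 to 26.3 CPM in SAH 1d with a median of 0.681, and from 0.103 to 6.14 in SAH 7d with a median of 0.187. It had reads in all 12 SAH libraries, and the highest values were those of SAH 1d-3 and SAH 7d-5. With the sham group set at a floor of 3 counts over its 6 libraries, the mean of Slpi was at least 291-fold higher in SAH 1d and at least 70.8-fold higher in SAH 7d. These bounds fell to 37.0-fold without SAH 1d-3 and to 12.0-fold without SAH 7d-5. Mcemp1 (ENSRNOG00000028259) ranged from 0.279 to 9.81 CPM in SAH 1d with a median of 0.549. In SAH 7d it had 223 counts in SAH 7d-5, which is 6.75 CPM, 4 counts in SAH 7d-2 and none in the other 4 libraries. The mean of Mcemp1 in SAH 1d was at least 131-fold above the floor of the sham group, and at least 40.2-fold without SAH 1d-3.

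Most of the Mmp8 reads came from SAH 7d-5. Mmp8 (ENSRNOG00000009907) ranged from 0 to 0.988 CPM in sham with a median of 0.216, from 0 to 8.29 in SAH 1d with a median of 0.369, and from 0 to 130 in SAH 7d with a median of 0.237. All 3 groups overlapped. SAH 7d-5 alone held 4291 of the 4319 counts of Mmp8 in the SAH 7d group. The SAH 7d mean was 75.5 times the sham mean with SAH 7d-5 and 0.633 times the sham mean without it. The SAH 1d mean was 5.74 times the sham mean, and 1.14 times without SAH 1d-3.

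The receptor genes moved unlike each other. Csf3r (ENSRNOG00000008759) had reads in all 18 libraries, from 1.79 to 4.16 CPM in sham with a median of 2.83, from 5.26 to 20.9 in SAH 1d with a median of 7.5, and from 2.81 to 89.2 in SAH 7d with a median of 10.8. All SAH 1d libraries lay above all sham libraries, and only SAH 7d-4 of the SAH 7d group lay within the sham range. The mean of Csf3r was 9.32 ± 5.90 CPM in SAH 1d against 2.80 ± 0.810 in sham (SD, n = 6 each), a log2 fold of 1.74 (SE 0.34). In SAH 7d the mean was 8.30 times that of sham, and 3.59 times without SAH 7d-5. Cxcr2 (ENSRNOG00000014269) was sparse, with 5 counts over the sham group, 304 over SAH 1d and 21 over SAH 7d. SAH 1d-3 held 263 of the 304, and the other SAH 1d libraries held 3 to 17 counts each. All SAH 1d libraries lay above all sham libraries in CPM, at 0.105 or more against at most 0.104, and SAH 1d and SAH 7d overlapped. Without SAH 1d-3 the mean of Cxcr2 in SAH 1d was 8.71 times that of sham.

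**Figure D1:**
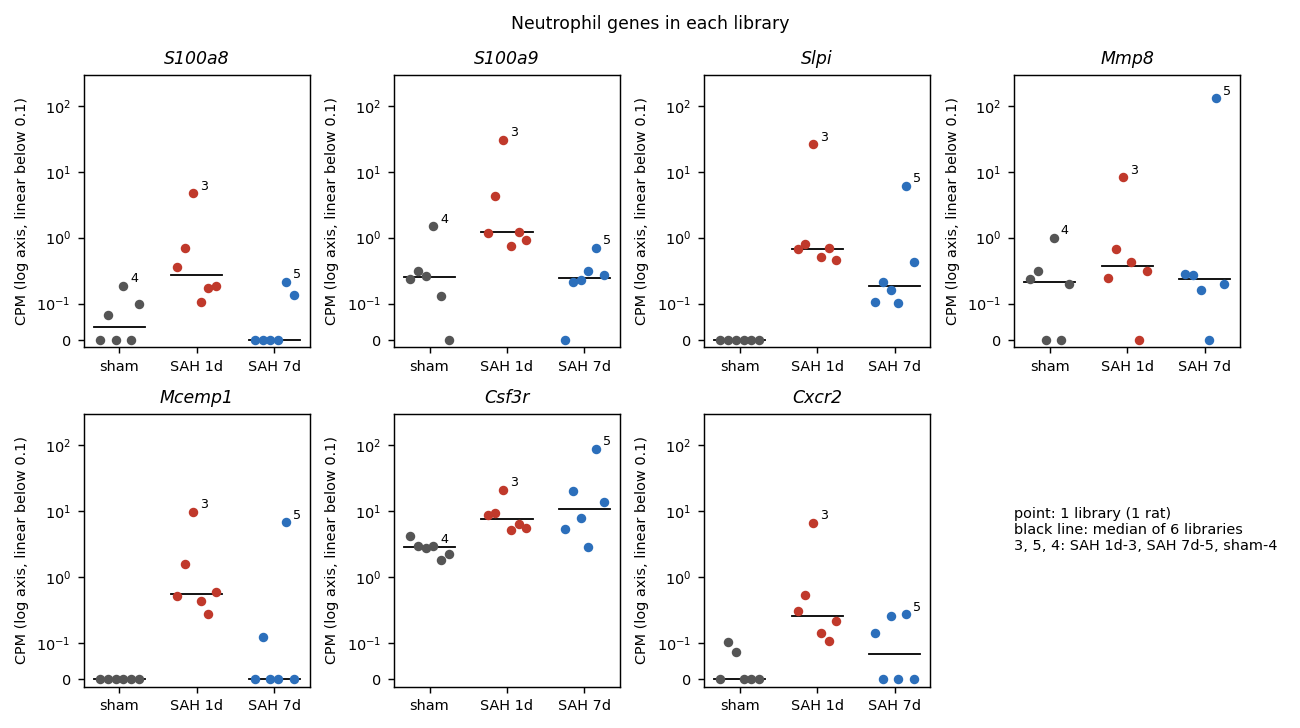
CPM of each of the 7 genes in each library (vertical axis logarithmic, linear below 0.1) for sham, SAH 1d and SAH 7d, with 1 point per rat and a black line at the median of 6 libraries. SAH 1d-3 is the highest SAH 1d library for all 7 genes, and SAH 7d-5 stands far above its group for Csf3r, Mmp8, Mcemp1 and Slpi but not for S100a8, S100a9 and Cxcr2.

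SAH 1d-3 and SAH 7d-5 together held most of the summed CPM of each of the 7 genes, in different proportions. SAH 1d-3 held 68.1% of the summed CPM of S100a8 over the 18 libraries, 71.0% of S100a9, 75.6% of Cxcr2, 71.9% of Slpi and 48.9% of Mcemp1. SAH 7d-5 held 91.2% of that of Mmp8 and 42.1% of that of Csf3r. In FPKM, S100a9 led in SAH 1d-3 at 57.0, before Slpi at 30.3 and S100a8 at 12.4, while Mmp8 led in SAH 7d-5 at 52.1, before Csf3r at 21.3 and Slpi at 7.00. The CPM of S100a9 was 43.8 times lower in SAH 7d-5 than in SAH 1d-3, that of Cxcr2 24.5 times lower and that of S100a8 22.4 times lower. The CPM of Mmp8 was 15.7 times higher in SAH 7d-5 and that of Csf3r 4.28 times higher, while Mcemp1 was 1.45 times lower. The ratio of Mmp8 to S100a9 in FPKM was 40.5 in SAH 7d-5 and 0.0587 in SAH 1d-3. Each of these values comes from 1 rat and has no replicate.

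**Figure D2:**
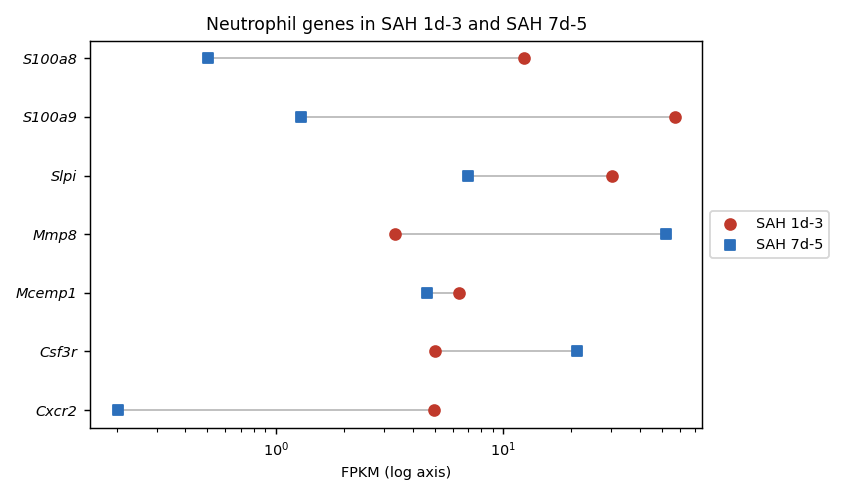
FPKM (logarithmic axis) of the 7 genes in SAH 1d-3 (circles) and SAH 7d-5 (squares), with a grey line joining the values of a gene. S100a8, S100a9, Cxcr2, Slpi and Mcemp1 were higher in SAH 1d-3, and Mmp8 and Csf3r were higher in SAH 7d-5.

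The markers that define neutrophils were checked in the same libraries. Ltf had 0 counts in all 18 libraries. Mpo, Elane, Camp and Cd177 had at most 15 counts in any library, and the library with 15 counts of Mpo was sham-4. Cxcr1, which encodes the second receptor for CXC chemokines of neutrophils, had 197 counts in SAH 7d-5 and at most 4 in any other library, SAH 1d-3 included. Lcn2, which encodes a secreted iron-trapping protein that reactive astrocytes also make, ranged from 0.430 to 0.793 CPM in sham, from 9.17 to 66.5 in SAH 1d and from 0.719 to 12.8 in SAH 7d. The SAH 1d group lay above the other groups except for SAH 7d-5. The highest Lcn2 value was that of SAH 1d-4, not of SAH 1d-3. The name of the 7 genes is thus that of the cells they are known from, while 5 of the 7 defining markers were at or near 0 in these libraries. Of these, Mpo, Elane, Ltf and Camp have transcripts that are scarce in mature cells of the blood, as stated above. Whether mature neutrophils were present was not tested. In bulk tissue, fewer cells of a type and less RNA per cell cannot be told apart.

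Markers of other cell types also differed in the libraries that stand apart. The summed CPM of 7 monocyte and macrophage markers ranged from 82.8 to 141 in sham, from 127 to 631 in SAH 1d and from 132 to 8847 in SAH 7d, with the highest values in SAH 1d-3 and SAH 7d-5. Of these 7 markers 3 rose in SAH 1d against sham, Cd163, Lyz2 and Cd68. Lyz2 alone gave 8006 of the 8847 CPM in SAH 7d-5, and it gave most of the sum in SAH 1d-3 as well. The highest SAH 7d values of Cd68 and Cd163 were 558 and 13 CPM. The sums of SAH 1d-3 and SAH 7d-5 thus mainly follow Lyz2. SAH 7d-5 was also the highest SAH 7d library for the T cell markers at 249 CPM, of which Cd8a gave 8046 counts and Cd3e 66, for fibroblast markers at 4188 and for microglia markers at 2456. It was the lowest of all libraries for neuron markers at 1385 CPM. After SAH 7d-5 the microglia sum was highest in SAH 7d-2 (1060 CPM) and SAH 7d-6 (812 CPM) within SAH 7d. Csf3r had the same order, at 89.2, 20.4 and 13.8 CPM. In SAH 1d the microglia sum ranged from 328 to 384 CPM and was lowest in SAH 1d-3, where Csf3r was highest of that group. The sum of the 5 red cell markers in the table ranged from 13.3 to 109 CPM in sham with sham-4 highest, from 52 to 189 in SAH 1d with SAH 1d-3 highest, and from 1.69 to 65.3 in SAH 7d with SAH 7d-5 lowest, and 0 of the 5 were called in any comparison by edgeR. Of the mast cell markers, checked because of Mcemp1, Cpa3, Tpsb2, Tpsab1, Cma1 and Fcer1a had at most 11 counts over any group. Hdc, which makes histamine, was called higher in SAH 1d against sham (log2 fold 1.69, SE 0.52, adjusted p = 0.0319), and its groups overlapped. Sham-4 was also the library with the most counts of Ngp (33) and of Camp (10), which encode granule proteins of maturing neutrophils. Markers of neurons, astrocytes and oligodendrocytes were present in all 18 libraries, and some differed by group. The astrocyte sum ranged from 1115 to 2186 CPM in sham and from 3446 to 4661 in SAH 1d, with Gfap called higher (log2 fold 3.0, SE 0.17, adjusted p = 1.37e-06). The other astrocyte markers did not rise with it, at log2 folds of 0.26 for Aqp4, -0.16 for Gja1 and -0.85 (SE 0.19) for Aldh1l1. The median of the 4 astrocyte markers was 0.05. The neuron sum had a median of 5475 CPM in sham and 3328 in SAH 1d. Choroid plexus markers summed to 712 CPM in SAH 1d-4, the library with the most Lcn2, and to 1038 in SAH 1d-6, against a sham range of 3.14 to 66.4. The part of these cell types and of residual blood in the levels of the 7 genes and of Lcn2 was not tested.

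In the fit of SAH 1d against sham, 4 of the 5 genes that passed the filter were called higher, S100a9, Csf3r, Slpi and Mcemp1, where 5.57% of the 18444 tested genes were called higher. A gene was called at an adjusted p under 0.05 (edgeR, Benjamini-Hochberg over all tested genes) with a log2 fold of 1 or more in size. Since this comparison was treated as used in choosing the genes, nothing is read from this count. Without SAH 1d-3 the calls were 3, and S100a9 was lost. With all libraries DESeq2 called 3 of the 5 higher, and nothing is read from this count either. Groups did not overlap for 4 of the 7 genes, Cxcr2, Csf3r, Slpi and Mcemp1, against 7.89% of all tested genes, and for the same 4 genes without SAH 1d-3, against 9.09%. Cxcr2 is not among the tested genes that these shares cover. Its groups were parted only by library size, with 3 counts each in SAH 1d-5 (0.105 CPM) and sham-2 (0.104 CPM).

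Other genes of neutrophils and of their recruitment were set beside the 7 genes. They are 62 genes in 6 lists by role, of which 60 are in the table and 36 passed the filter. The lists too were drawn up with earlier results of these data known, so their counts and p-values are not independent support. In SAH 1d against sham 24 of the 36 were called higher and 0 lower, where 5.57% of all tested genes were called higher. The log2 fold was above 0 for 33 of the 36. Their median log2 fold was 1.93 against 0.01 over all tested genes. Leaving out SAH 1d-3 gave 23 genes called higher and a median of 1.41, with Cybb and Tlr4 under the fold threshold and Ager added. From here on, a list gene is said to have risen where it was called higher.

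**Figure D3:**
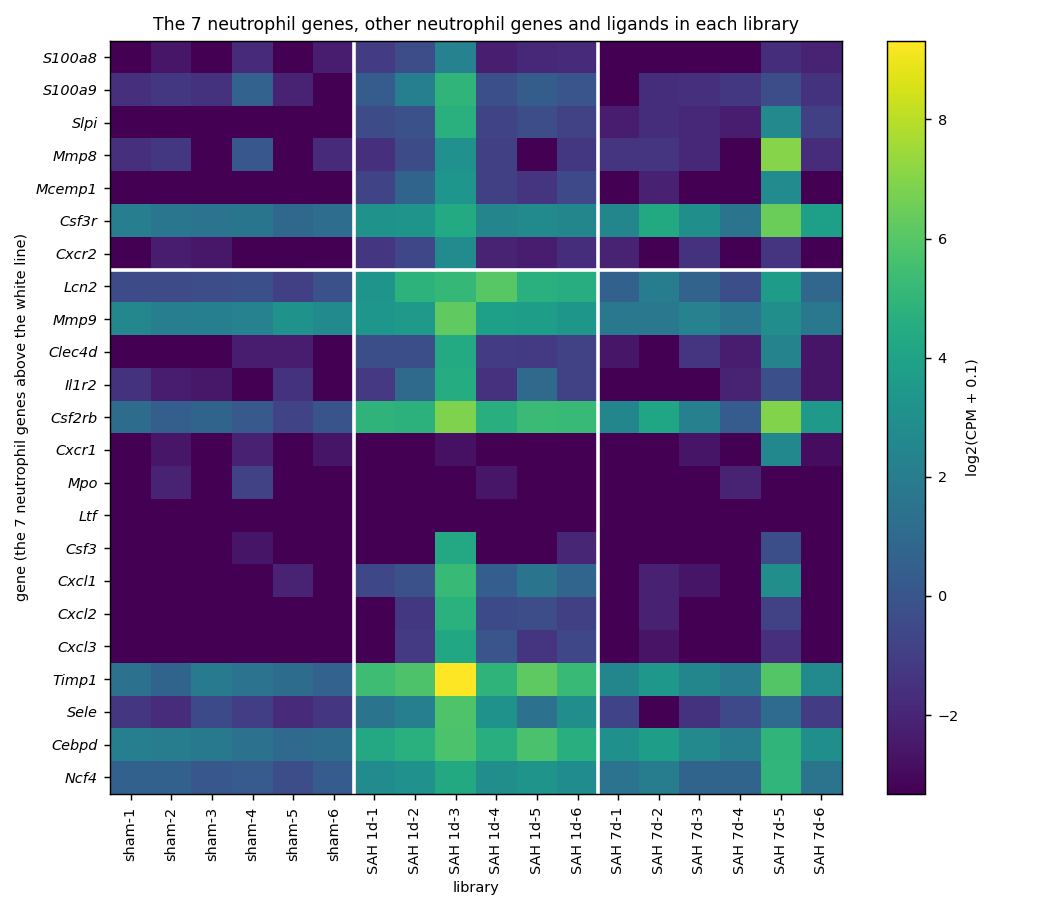
Levels of the 7 genes (above the white line) and of other neutrophil genes, ligands and partners (below it) in each of the 18 libraries, as log2(CPM + 0.1), with white lines between the groups. Lcn2, Csf2rb, Timp1 and Cebpd are raised in all 6 SAH 1d libraries, Csf3 almost only in SAH 1d-3, and Ltf stays at 0.

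Among the ligands and partners of the 7 genes, 4 of 8 tested genes rose, and the median log2 fold of the 8 was 1.02. Timp1, which encodes an inhibitor of matrix metalloproteinases such as that of Mmp8, rose with a log2 fold of 5.98 (SE 0.89, adjusted p = 0.000684). Its level ran from 1.45 to 3.56 CPM in sham and from 30.0 to 640 in SAH 1d, with no overlap. Cxcl1 and Cxcl2 encode chemokines that bind the receptor of Cxcr2. Without SAH 1d-3 the log2 fold was 4.33 for Timp1 and 5.74 for Cxcl1. With it, Cxcl1 rose with a log2 fold of 8.15 (SE 1.55, adjusted p = 0.00287), from at most 0.132 CPM in sham to 0.573 to 37.4 in SAH 1d. Cxcl2 rose as well (adjusted p = 0.0327), with no count in sham and a SAH 1d mean at least 289-fold above the floor, or 24.4-fold without SAH 1d-3. Cxcl3, which did not pass the filter, had 718 counts in SAH 1d-3 and 0 to 25 in the other SAH 1d libraries. Csf3, the ligand of the Csf3r receptor, had 773 counts in SAH 1d-3, 5 in SAH 1d-6 and none in the other 4 SAH 1d libraries, and 24 in SAH 7d-5. The library with the most S100a9, Cxcr2 and Slpi was thus also the one with the most Csf3, Cxcl1, Cxcl2 and Cxcl3. Tlr4, a receptor of calprotectin, rose by a log2 fold of 1.05 (SE 0.33, adjusted p = 0.0319).

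Among 19 surface receptors and adhesion molecules, 8 of 11 tested genes rose, with a median log2 fold of 2.72. With all libraries the largest fold was that of Clec4d, a C-type lectin receptor of myeloid cells (log2 fold 6.73, SE 1.51, adjusted p = 0.00707). It ranged up to 0.0992 CPM in sham and from 0.349 to 20.9 in SAH 1d. Il1r2, a decoy receptor for interleukin-1, followed (5.24, SE 1.28, adjusted p = 0.0107), and its groups overlapped. Without SAH 1d-3 these folds were 3.82 (SE 0.68) for Clec4d and 3.03 (SE 0.80) for Il1r2, below the 4.69 (SE 0.27) of Csf2rb. Csf2rb, the shared subunit of the receptors for GM-CSF and interleukin-3, rose in every SAH 1d library (5.23, SE 0.47, adjusted p = 2.42e-05), with the lowest SAH 1d library at 697 counts and the highest sham library at 63. Fcgr3a, Itgam, Itgb2 and C5ar1 were also among the genes that rose.

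All 4 tested subunits of the phagocyte oxidase rose, with a median log2 fold of 1.64. They were led by Ncf4 (3.11, SE 0.31, adjusted p = 3.91e-05), then Cyba (1.78, SE 0.23, adjusted p = 0.000309) and Cybb (1.5, SE 0.44, adjusted p = 0.0244). These subunits are also made by macrophages and microglia. Of 14 granule and effector genes only 4 passed the filter, and Lcn2 (5.57, SE 0.42, adjusted p = 9.39e-06) and Mmp9, a gelatinase (1.98, SE 0.52, adjusted p = 0.0155), rose, with a median of 1.05 over the 4. Among transcription factors of granulocytes 3 of 4 tested rose, with a median of 1.89, namely Cebpd (3.49, SE 0.31, adjusted p = 2.31e-05), Cebpb (2.14, SE 0.32, adjusted p = 0.000685) and Spi1, which encodes PU.1 (1.64, SE 0.23, adjusted p = 0.00048). Of the molecules on endothelium that leukocytes hold on to, 3 of 5 tested rose, with a median of 2.39. Sele, encoding E-selectin (5.37, SE 0.87, adjusted p = 0.00119), and Icam1 (2.39, SE 0.38, adjusted p = 0.00103) did not overlap between groups, and Selp, encoding P-selectin (4.16, SE 1.15, adjusted p = 0.0197), did. Without SAH 1d-3 the log2 fold fell to 3.94 for Sele, to 1.41 for Selp, to 1.83 for Icam1 and to 1.01 for Mmp9, and the 4 genes were still called higher.

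**Figure D4:**
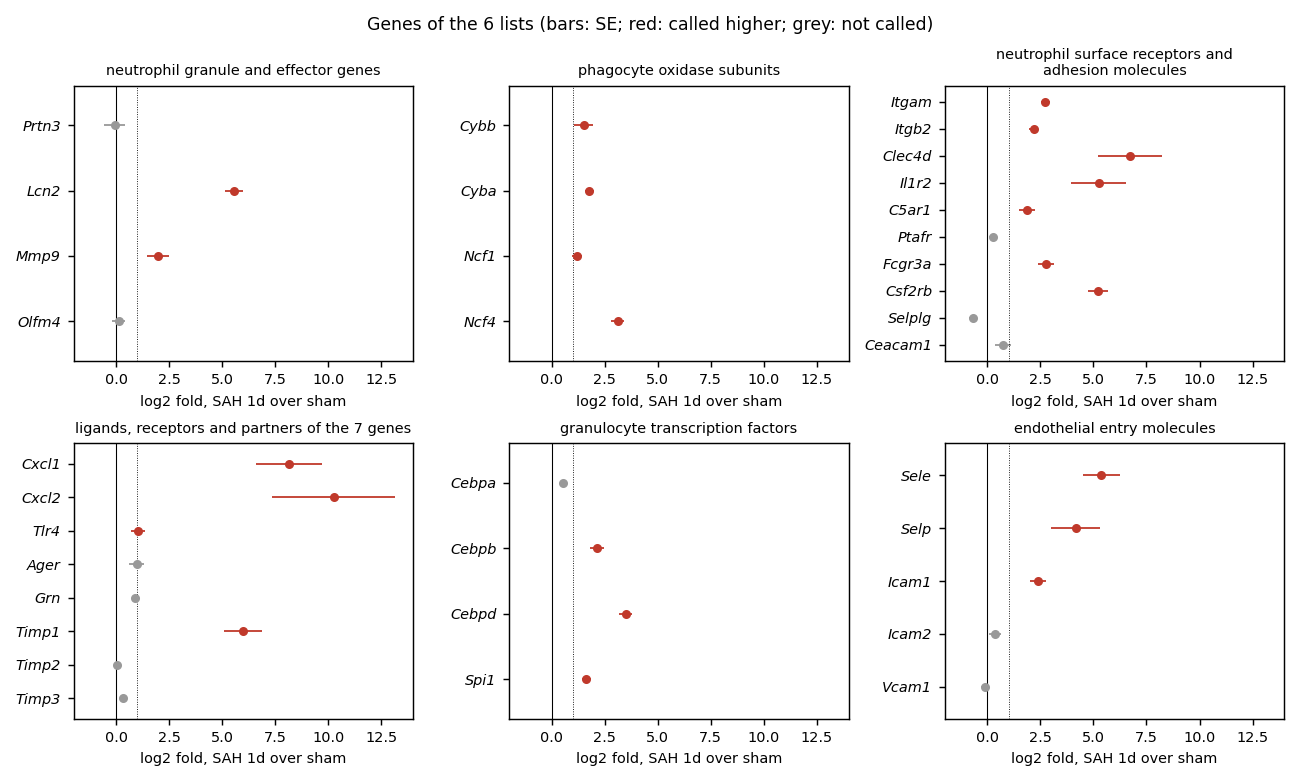
Log2 fold of SAH 1d over sham with its SE for 35 of the 36 tested genes of the 6 lists, with called genes in red, uncalled genes in grey and a dotted line at a log2 fold of 1. The 23 called genes drawn all lie to the right of the line, from 1.05 for Tlr4 upward.

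In SAH 7d against SAH 1d, 0 of the 5 tested neutrophil genes were called, where 0.152% of all tested genes were called higher and 0.542% lower. DESeq2 called 1, S100a9, lower, and the DESeq2 calls over all tested genes are given further below. The log2 folds were -4.48 (SE 1.12) for S100a9, -2.02 (SE 1.37) for Slpi, -0.93 (SE 1.49) for Mcemp1, 1.33 (SE 0.74) for Csf3r and 3.71 (SE 1.96) for Mmp8. S100a9 was the 1 gene of the 7 whose groups did not overlap in CPM, lower in SAH 7d, against 2.11% of all tested genes. Its groups were parted only by library size, with 21 counts in SAH 1d-4 (0.752 CPM) and 23 in SAH 7d-5 (0.696 CPM). Without SAH 7d-5 the log2 fold of Mmp8 turned from 3.71 to -3.18 (SE 1.26), Mcemp1 moved to -6.23 (SE 1.40), Slpi to -4.59 (SE 1.36) and Csf3r to 0.09 (SE 0.49). S100a9 and Mcemp1 were then called lower, against 1.98% of all tested genes. The Csf3r mean without SAH 7d-5 was 10 CPM at SAH 7d against 9.32 at SAH 1d. Without SAH 1d-3 instead, Slpi turned to 0.96 (SE 1.04) and Mcemp1 to 0.78 (SE 1.48). With both of these libraries left out, the log2 folds were -3.01 (SE 0.64) for S100a9, -1.60 (SE 0.41) for Slpi and -4.51 (SE 0.87) for Mcemp1, and these 3 of the 5 genes were called lower, against 2.08% of all tested genes. The genes were chosen from these data, and both libraries were singled out by the levels of these same genes. Nothing is therefore read from the counts of calls in this comparison.

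The 36 list genes followed the same division. With all 12 libraries only Selplg, which encodes the selectin ligand of leukocytes, was called (log2 fold 2.0, SE 0.30, adjusted p = 0.00627), higher in SAH 7d. It ranged from 23.2 to 48.6 CPM in sham, from 13 to 26.3 in SAH 1d and from 37.2 to 122 in SAH 7d. Against sham its log2 fold was -0.68 (SE 0.19, adjusted p = 0.0174) in SAH 1d and 1.32 (SE 0.30, adjusted p = 0.214) in SAH 7d, neither called. An unadjusted p under 0.05 was found for 18 of the 36, and for 2713 of all 18444 tested genes. Without SAH 7d-5, 15 genes were called lower and 1 higher, and 14 of the 15, all but Ager, had risen in SAH 1d against sham. They included Lcn2 (-4.06, SE 0.53, adjusted p = 0.00174), Cxcl1 (-7.45, SE 1.62, adjusted p = 0.0181), Timp1 (-4.54, SE 0.93, adjusted p = 0.0141), Sele (-5.37, SE 1.06, adjusted p = 0.012) and Cebpd (-2.10, SE 0.35, adjusted p = 0.00597). The same 15 genes were called lower when SAH 1d-3 was left out too. The SAH 1d libraries enter both SAH 1d against sham and SAH 7d against SAH 1d, so the 14 shared genes are partly built in. Both left-out libraries were singled out after their values were seen. In SAH 7d-5 itself, Lcn2 was at 12.8 CPM, Cxcl1 at 7.59 and Timp1 at 61.5, each the highest of the SAH 7d group.

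**Figure D5:**
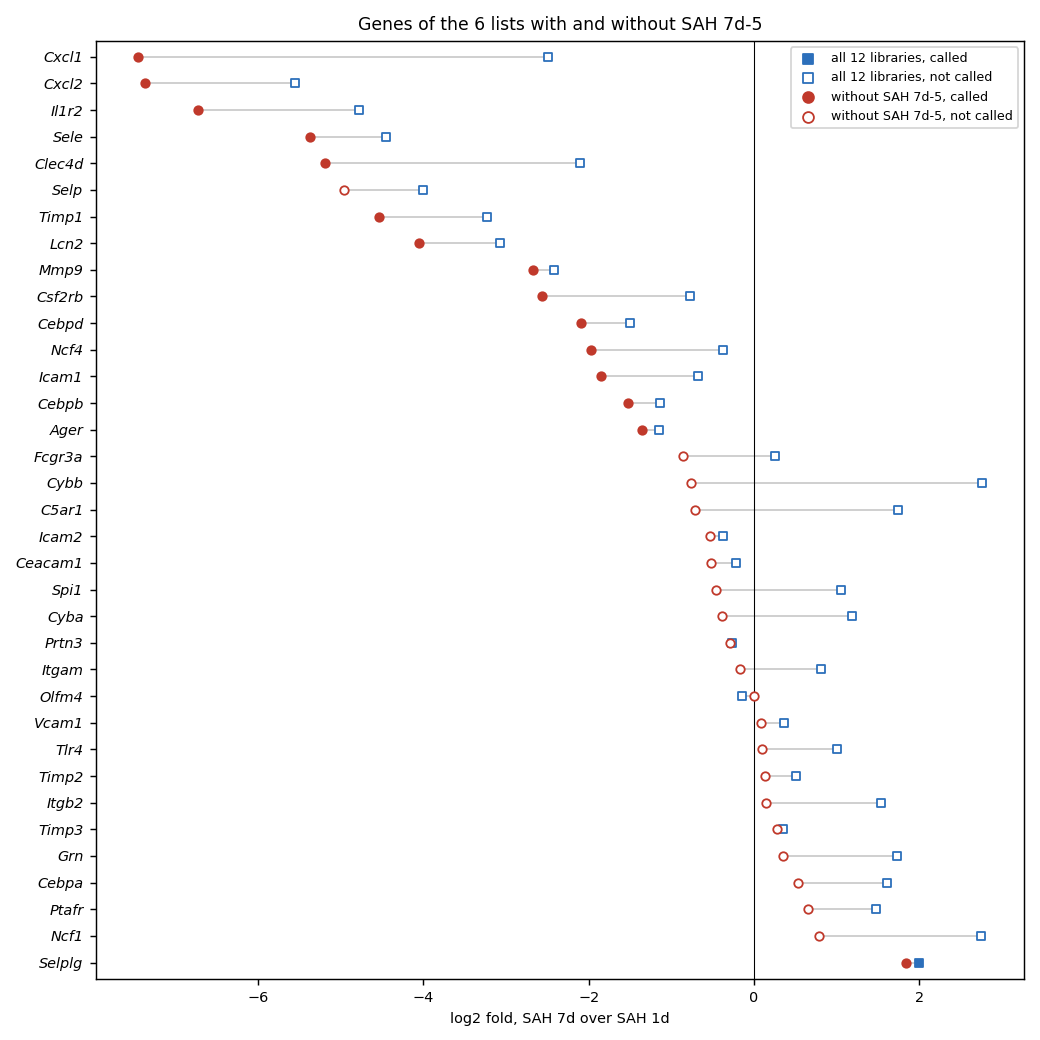
Log2 fold of SAH 7d over SAH 1d for 35 of the 36 tested genes of the 6 lists, with all 12 libraries (squares) and without SAH 7d-5 (circles), filled where the gene was called. With all libraries only Selplg is filled, and without SAH 7d-5 14 genes with folds from -7.45 for Cxcl1 to -1.36 for Ager are filled as well, while Selp is not.

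In SAH 7d against sham, 0 of the 5 tested neutrophil genes were called, where 0% of all tested genes were called higher and 2842 had an unadjusted p under 0.05. DESeq2 called 1, Csf3r, higher. Slpi was the 1 gene of the 7 whose groups did not overlap, against 0.797% of all tested genes, since its lowest SAH 7d library had 3 counts and sham had none. The log2 folds of S100a9, -0.50 (SE 0.86), and of Csf3r, 3.06 (SE 0.74), lay on either side of 0. Mmp8 was at 6.19 (SE 2.09) and turned to -0.66 without SAH 7d-5. Of the 36 list genes 0 were called by edgeR, 23 had an unadjusted p under 0.05, and DESeq2 called 15, all higher. The DESeq2 calls over all tested genes, to set beside the 15 and the call of Csf3r, are given further below. The median log2 fold of the 36 was 2.01 with all libraries and 1.00 without SAH 7d-5.

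The genes with a profile most like that of the 7 were ranked by Pearson's r between log2 CPM and the mean of the scaled log2 CPM of the 5 tested genes, over 18 libraries. The libraries share group and cell makeup, so r is a description with no p. The mean score was 2.46 SD units in SAH 1d-3 and 2.31 in SAH 7d-5, and at most 0.90 in any other library. The 10 most alike were Plin2 (r = 0.97), which coats lipid droplets, and Stt3a, Il6st, Tpm4, Tnip2, Rela, Anxa2, Jpt2, Msn and Gatad2a (r = 0.96 each). Plin2 ran from 6.05 to 10.9 CPM in sham, from 23.4 to 195 in SAH 1d and from 9.65 to 144 in SAH 7d, with its peaks in SAH 1d-3 and SAH 7d-5. This order was not stable. Without SAH 1d-3 the 10 genes took ranks from 11 to 84, and by Spearman's rho ranks from 27 to 413, so that 0 of the 10 stayed among the first 10. Of the 5 tested genes themselves, Mcemp1 (r = 0.96) and Slpi (0.95) lay closest to their shared mean. Csf3r was at 0.85, Mmp8 at 0.84 and S100a9 at 0.77. Without SAH 7d-5, S100a9 came first of these 3 at 0.88, before Csf3r and Mmp8 at 0.79 each.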

How the data were processed

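RNA from the cortex of 18 rats was sequenced, 1 library per rat. The authors had reads trimmed and aligned to Rnor_6.0, and deposited a whole-number count per gene and library, not normalized, and FPKM values scaled to transcript length and mapped reads. The submitters' processing notes name fastp, HISAT2 and DESeq2 1.16.1, and also list mm9, a mouse build, while the gene identifiers are rat. The counting program is not given in the sources used here, so overlapping genes may share reads. Groups come from the labels. The 7 genes and the 6 lists were chosen with earlier results of these data known.

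Counts were tested with edgeR 4.0.16 in R 4.3.3: TMM, filterByExpr over 18 libraries, and the two-sided quasi-likelihood F test on the 12 libraries of each comparison, which was tested on simulated data. SEs are those of the log2 fold. Alternatives were DESeq2 1.42.0, limma 3.58.1 on log2(FPKM + 1) and log2(FPKM + 0.1), other filters and normalizations, 1 fit of 18 libraries, a replicate block, and leaving out libraries. Tables and figures were made with Python 3.11.15. The text names, per list and comparison, the 3 called genes of largest fold, the neutrophil-defining genes, the ligands Csf3 and Cxcl1 to Cxcl3, and the 10 genes most like the 7. Other genes, such as Ngp, Cd8a, Gfap, Hdc and Tlr4, were named after their values were seen, and 1 list gene is counted but not reported here. The 3 comparisons share groups and are not independent. Libraries come from separate rats, so p-values measure the spread between rats. Reads without molecular identifiers are not independent molecules, so no counting intervals are given.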

Additional observations from a re-analysis of the deposited data

Results flagged for a closer look

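Each of the 7 genes was checked for a library far from the other 5 of its group, by the gap to the nearest library over the range of the group. Of 19 pairs of gene and group 13 were marked. The rule is meant to mark about 1 in 20 by chance, but these levels are sparse and skewed. The genes were also chosen from these data, so the 13 marks are a description and no test against chance. SAH 1d-3 was far above the other SAH 1d libraries for all 7 genes, at 4.74 CPM for S100a8, 30.5 for S100a9, 6.67 for Cxcr2, 20.9 for Csf3r, 26.3 for Slpi, 9.81 for Mcemp1 and 8.29 for Mmp8. SAH 7d-5 was far above the other SAH 7d libraries for 4 genes, at 89.2 CPM for Csf3r, 6.14 for Slpi, 6.75 for Mcemp1 and 130 for Mmp8. Sham-4 was far above the other sham libraries for S100a9, at 1.48 CPM, and for Mmp8, at 0.988 CPM. The 7 genes share libraries, so these marks are not independent of each other.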

How the results depend on the processing

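For SAH 1d versus sham, the 24 called list genes became 16 to 31 under the other normalizations, tests and filters, and 21 to 25 with each library left out. For SAH 7d versus SAH 1d the 1 called gene became 6 with DESeq2, 7 in 1 fit of 18 libraries, 2 and 5 with limma on log2(FPKM + 1) and log2(FPKM + 0.1), and 16 when SAH 7d-5 and SAH 1d-3 were both left out. Leaving out each library gave 1 to 16, namely 16 without SAH 7d-5, 2 without the library SAH 1d-3 and 1 for the others. For SAH 7d versus sham, 0 became 15 with DESeq2, and stayed at 0 with each library left out. Over all tested genes, SAH 7d versus SAH 1d moved from 128 calls to 388 with DESeq2, 289 in 1 fit of 18 libraries, 453 without SAH 7d-5 and 63 to 155 without each other library (63 without SAH 7d-2), SAH 7d versus sham from 0 to 370 with DESeq2, 9 in 1 fit and 3 without SAH 7d-4, and SAH 1d versus sham from 1224 to 782 in 1 fit of 18 libraries. Apart from the leave-one-out fits the cause was not tested. The log2 folds of the 7 genes were fitted 101 times per comparison, and no called fold changed sign. In both comparisons with SAH 7d 0 of these genes were called with all libraries, so this does not show stable directions there. Uncalled folds did change sign in SAH 7d versus SAH 1d. Mmp8 went from 3.71 to -3.18 without SAH 7d-5, and Slpi from -2.02 to 0.96 without SAH 1d-3. Of the fits, 15, 11 and 15 moved by more than 1 SD between rats, most of them without SAH 1d-3 or SAH 7d-5 or on the FPKM scale.

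Nothing ties rats of the same number across groups, and libraries of the same number did not deviate together (r from -0.25 to 0.20). With the number as a replicate block, 20, 1 and 0 list genes were called for SAH 1d versus sham, SAH 7d versus SAH 1d and SAH 7d versus sham, and 27 of all genes for SAH 7d versus SAH 1d. Low counts limit S100a8 and Cxcr2, with 11 and 5 counts over the sham group.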

Other observations

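Several myeloid receptors outside the 7 genes were shared by SAH 1d-3 and SAH 7d-5, unlike S100a9 and Cxcr2. Trem1, an amplifier of myeloid inflammation, had 468 counts in SAH 1d-3 and 462 in SAH 7d-5, none in any sham library and at most 29 in any other SAH library. Trem3 was at 2.84 CPM in SAH 1d-3 and 2.96 CPM in SAH 7d-5. Clec4e, a C-type lectin receptor, was instead at 11.7 CPM in SAH 1d-3 and 0.424 CPM in SAH 7d-5. Cebpe, a transcription factor of late granulocyte maturation, had 36 counts in SAH 7d-5 and at most 5 in any other library. In sham-4 the transcripts of maturing granulocytes were seen at low counts, with 15 for Mpo, 33 for Ngp, 10 for Camp, 8 for Np4 and 6 for Ctsg, while Slpi, Mcemp1 and Cxcr2 had 0 counts there. These genes were picked after their values were seen, and each value is that of 1 library.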
